A study of Homo sapiens with 24 samples.

Results

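The 74 probes described here were raised by retinoic acid (RA) in SH-SY5Y cells. These are an established human line from a neuroblastoma that can be driven toward a neuronal state. Without RA, the probes differed little with miR-125b overexpression on day 2. They were chosen from 20589 probes on 24 Illumina arrays by the authors' normalized intensity values, with values under 50 raised to 50 and put on the log2 scale. A member had a mean of at least 7 in at least 1 of the 8 groups of 3 arrays. It was higher by at least 0.8 with RA than without on day 2, both with the scrambled control and with overexpression. Overexpression moved it by less than 0.4 without RA, and did not lower it by 0.5 or more with RA. These 4 differences chose the members, so they are given as a description, with no test.

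Gene expression was measured in total RNA by 1 hybridisation per sample. Without RA, cells with a scrambled control (SCR) and cells with OE, read here as overexpression of miR-125b, were each sampled on day 2 and on day 4. With RA, all on day 2, the groups were SCR, knockdown of miR-125b (KD), OE, and the combination (OE+KD). OE is spelled out in no label, the source names use another abbreviation (DP) for it, and the growth protocol in the labels is about other reagents, so the RA dose, the delivery of the reagents and whether cultures were separate remain unknown here. The p-values then reflect only how far arrays of the same group lay apart, pooled over the 8 groups, which may be technical variation. The level of miR-125b itself was not analysed here. The tables used here do not pair the probes with genes, so members are named by their Illumina IDs, no role is given to them, and the cell line was not checked against marker genes.

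As background, RA enters the cell and binds nuclear receptors, the RA receptors, which pair with retinoid X receptors on DNA and switch on transcription of their target genes. In neuroblastoma cells this slows division and promotes the outgrowth of neurites. MicroRNAs act after transcription: they pair through their seed with messenger RNAs and lower their stability and translation. The mature sequence is shown because the manipulated strand defines the study; the labels do not name the arm, and the 5p arm is given here from RefSeq (GRCh38.p14), with the seed, bases 2 to 8, in capitals. RefSeq lists the same 22 bases under MIR125B1, at chr11:122099809-122099830 on the minus strand, and under MIR125B2, at chr21:16590253-16590274 on the plus strand.
hsa-miR-125b-5p: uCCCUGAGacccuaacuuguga

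Among the 20589 probes, 9069 had a group mean of at least 7, and 144 of these rose by at least 0.8 with RA in both backgrounds. The OE difference without RA left out 59 of the 144, of which 16 were higher and 43 lower with OE. The OE difference with RA left out 11 more. On the authors' scale the RA difference of the 74 members ran from 0.81 to 4.59 with SCR, with a median of 1.21, and from 0.83 to 4.26 with OE, with a median of 1.42. Both differences were at least 1 for 50 members, at least 2 for 12, at least 3 for 7 and at least 4 for 3. The collection is thus mostly of moderate rises, with a small number of very large ones.

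The thresholds cut through a continuous range of values. The members nearest the threshold for RA with SCR had differences of 0.8104 and 0.8127, and the nearest probes that failed this condition alone had 0.7930 and 0.7851. For RA with OE the nearest values were 0.8255 and 0.8417 inside against 0.7774 and 0.7679 outside. For OE without RA the nearest sizes were 0.3985 and 0.3931 inside against 0.4029 and 0.4197 outside, and for OE with RA the nearest differences were -0.4620 and -0.4354 inside against -0.5445 and -0.5532 outside. The lowest of the highest group means were 7.0014 and 7.0559 inside, against 6.9911 and 6.9625 outside.

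The members differed in how much signal they gave before RA. The mean over the 6 arrays without RA on day 2 ran from 5.64, the log2 of the floor of 50, to 13.37, with a median of 7.74. On all 12 arrays without RA, 7 members stood at the floor, and 20 did so on at least 1. For 9 members all 6 day 2 arrays without RA were at the floor, so for those the condition on OE without RA was met by the floor itself. No member was at the floor on any array with RA. Of the 12 members that rose by at least 2 in both backgrounds, 10 started below 7 and 2 above 8. The other end held 14 members that started above 10, whose RA difference was 0.81 to 1.70 with SCR, with a median of 1.06, and 0.84 to 2.12 with OE, with a median of 1.08. The largest differences were thus mainly in probes that were dim without RA, and for those at the floor the difference is a minimum, while bright probes had smaller ones.

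The values below are intensities recomputed from the deposited scanner values, on a log2 scale after a background correction, whose offset compresses the differences of dim probes, and quantile normalization. All 74 members passed the filter on dim probes, 64 of them through a group without RA and 10 only through groups with RA. Calls rest on limma with a threshold of 0.05 on the p-value adjusted by Benjamini-Hochberg over the 10691 probes tested. The median SD between the 3 arrays of a group was 0.098 over the members. It was 0.194 for OE with RA and 0.085 to 0.105 for the other 7 groups. One array stood apart: replicate 2 of OE with RA deviated from its group with an SD of 0.225 over all tested probes, against 0.074 to 0.161 for the other 23 arrays. That group entered the choice of the members, and without that array the rule gave 75 probes, 68 of them members.

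The RA difference was next read in arrays that took no part in the 4 differences. They did enter the condition on the highest group mean, which 1 member, ILMN_2701, met in KD with RA alone. KD with RA on day 2 was compared with SCR without RA on day 4, and OE+KD with RA on day 2 with OE without RA on day 4. In each pair RA, knockdown and day cannot be told apart. The 10 members that passed the filter only through groups with RA, ILMN_2701 among them, were kept through their high values there, so the counts are read over the other 64. In the first pair 63 of these 64 were called higher, against 19.7% of the 10476 probes that passed through a group without RA. Their median difference was 1.17, with a range of 0.20 to 3.12, against -0.02 over those probes. In the second pair 62 of the 64 were called higher, against 22.5%, with a median of 1.02 and a range of 0.10 to 3.43, against -0.02. Both pairs called 61 of the 64 higher, against 9.58%. Over all 74 the calls were 73 higher and 0 lower in the first pair, where 20.5% of all tested probes were called higher, 21.8% lower and 42.2% either way. They were 72 higher and 0 lower in the second, where the shares were 23.2%, 24.5% and 47.6%.

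The 3 members not called were picked out after their values were seen. ILMN_3874 read 7.50, 7.46 and 7.61 in KD with RA against 7.44, 7.23 and 7.31 in SCR on day 4, a difference of 0.20 (limma adjusted p = 0.227). ILMN_11556 read 8.34, 8.40 and 8.60 in OE+KD with RA against 8.43, 8.45 and 8.18 in OE on day 4, a difference of 0.10 (limma adjusted p = 0.412). ILMN_15661 read 8.40, 8.59 and 8.50 against 8.25, 8.30 and 8.18 in the same groups, a difference of 0.25 (limma adjusted p = 0.0622). The groups overlapped for ILMN_11556 and did not for ILMN_3874 and ILMN_15661.

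ILMN_7980 had the largest difference among the 64 in both pairs. Without RA it read 7.48, 7.33 and 7.38 in SCR on day 2, 7.60, 7.39 and 7.40 in OE on day 2, 7.63, 7.31 and 7.41 in SCR on day 4, and 7.55, 7.48 and 7.51 in OE on day 4. With RA it read 11.08, 10.94 and 11.09 in SCR, 10.59, 10.45 and 10.69 in KD, 11.05, 10.74 and 11.12 in OE, and 11.06, 10.87 and 10.88 in OE+KD. The 12 arrays with RA all lay above the 12 without. The difference between KD with RA and SCR on day 4 was 3.12 (SE 0.101, limma adjusted p = 1.33e-18), and that between OE+KD with RA and OE on day 4 was 3.43 (limma adjusted p = 1.6e-19). ILMN_1289 had the next largest difference in the first pair. It read 12.14, 12.27 and 11.93 in KD with RA against 8.89, 9.17 and 8.95 in SCR on day 4, a difference of 3.11 (SE 0.095, limma adjusted p = 3.65e-19).

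Larger values were read for probes that stood at the floor on all 12 arrays without RA on the authors' scale, and no fold or test is given for them. ILMN_27388 read 10.91, 10.83 and 10.92 in KD with RA and 10.74, 10.63 and 10.66 in OE+KD, with 6.59, 6.65 and 6.59 in SCR and 6.28, 6.65 and 6.55 in OE on day 4. ILMN_5693 read 10.02, 10.09 and 9.98 in KD with RA and 6.69, 6.67 and 6.65 in SCR on day 4. The values without RA of both lay below 7.08, the median level of all values on this scale, and both passed the filter only through groups with RA.

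On the authors' scale, 70 of 74 members were higher on each of the 12 arrays with RA than on any of the 12 without. The groups whose 4 differences chose the members are among these arrays, so this count is a description. In the 12 arrays of the day 4 groups, KD and OE+KD alone, 70 of the 74 likewise did not overlap. The share was 9.88% of the 9069 probes with a group mean of at least 7. The members that overlapped here, ILMN_26083, ILMN_5128, ILMN_11556 and ILMN_15661, all passed the filter through a group without RA. The 10 kept only through groups with RA, ILMN_2701 among them, are counted here, so the count over all 74 is a description. The recomputed RA difference on day 2, which the rule used, ran from 0.45 to 4.10 with SCR, with a median of 1.07, and from 0.60 to 3.80 with OE, with a median of 1.24.

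Whether the members were insensitive to OE was read in the 2 OE comparisons outside the 4 differences of the rule. On day 4 without RA, OE and SCR differed for 34 of 74 members, or 45.9%, of which 20 were higher and 14 lower with OE. Over all tested probes 51.5% were called, 26.2% higher and 25.3% lower. The median difference of the members was 0.09, with a range of -0.79 to 0.87, against 0.01 over all. Their median size was 0.24, against 0.26 over all, and 13 members, or 17.6%, differed by at least 0.5, against 22.0% of all tested probes. The share of members called was thus near the background. These counts include the 10 members that passed the filter only through groups with RA, whose signal without RA was dim. The share over the other 64 was not computed. With median scaling, which moved the median of all probes to 0.13, the calls split into 30 higher and 10 lower. The small OE differences without RA on day 2, which helped choose the members, were not followed by few calls on day 4. The members are therefore called here RA-raised probes rather than probes insensitive to miR-125b.

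The largest OE differences on day 4 were below 1 log2 unit. ILMN_137335 read 11.14, 10.88 and 10.73 in OE against 10.11, 10.01 and 10.02 in SCR, a rise of 0.87 (SE 0.112, 1.83-fold, limma adjusted p = 6.15e-07). ILMN_26083 read 7.96, 7.88 and 7.98 against 7.16, 6.93 and 7.18, a rise of 0.85 (SE 0.097, limma adjusted p = 8.63e-08). The groups did not overlap for either probe. ILMN_8409 read 8.59, 8.93 and 8.91 in OE against 9.36, 9.73 and 9.72 in SCR, a difference of -0.79 (SE 0.120, limma adjusted p = 6.11e-06). ILMN_15149 read 8.62, 8.52 and 8.96 against 9.28, 9.34 and 9.47, a difference of -0.66 (SE 0.123, limma adjusted p = 7.59e-05). All 3 OE arrays lay below all 3 SCR arrays for both.

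With RA, OE was read on top of the knockdown. OE+KD and KD differed for 14 of 74 members, or 18.9%, of which 10 were higher and 4 lower, where 8.83% of all tested probes were called, 3.59% higher and 5.24% lower. The median difference was 0.05, with a range of -0.44 to 0.61, against 0.01 over all, and 3 members, or 4.05%, differed by at least 0.5, against 2.38% of all tested probes. The count depended on the arrays, the scaling and the model, and moved both ways. It was 8 without KD replicate 1 (10.8%, against 6.37% of all tested probes) and 8 without KD replicate 2 (10.8%, against 7.69%). It was 6 without OE+KD replicate 2 (8.11%, against 6.06%). With median scaling in place of quantile normalization it was 8 (10.8%, against 5.02%), of which 4 were higher and 4 lower. Without the background correction it was 9 (12.2%, against 8.45%). Other settings raised it. Without replicate 2 of OE with RA, an array of neither group, it was 18 (24.3%, against 12.3%). With arrays weighted by their fit 27.0% of the members were called, 12 higher and 8 lower, against 12.5%. With the replicate number as a block 21.6% were called, against 13.1%.

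The members with the largest rises on the knockdown differed in their OE values on day 4. ILMN_8627 read 9.41, 9.27 and 9.23 in OE+KD against 8.60, 8.79 and 8.70 in KD, a rise of 0.61 (SE 0.086, 1.53-fold, limma adjusted p = 2.98e-05), and its OE difference on day 4 was -0.07 (limma adjusted p = 0.532). ILMN_25297 read 9.91, 9.79 and 9.96 in OE+KD against 9.30, 9.29 and 9.37 in KD, a rise of 0.56 (SE 0.095, limma adjusted p = 0.000286). On day 4 without RA the same probe read 8.36, 8.07 and 8.10 in OE against 7.63, 7.72 and 7.81 in SCR, a rise of 0.46 (limma adjusted p = 0.000292). It was thus higher with OE in both settings.

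The largest falls on the knockdown were in ILMN_15149 and ILMN_1289. ILMN_15149 read 11.33, 11.25 and 11.14 in OE+KD against 11.65, 11.70 and 11.69 in KD, a difference of -0.44 (limma adjusted p = 0.0226). Its levels with RA were 10.65, 10.72 and 10.92 in SCR and 10.83, 10.31 and 10.68 in OE, so OE+KD lay between KD and both of these groups. ILMN_1289 read 11.79, 11.76 and 11.74 in OE+KD against 12.14, 12.27 and 11.93 in KD, a difference of -0.35 (limma adjusted p = 0.0194). Both calls were lost with the authors' normalized values, where the differences were -0.41 and -0.34. Both were also lost without KD replicate 1, at -0.46 and -0.33, without KD replicate 2, at -0.43 and -0.27, without OE+KD replicate 2, at -0.44 and -0.35, and without OE+KD replicate 3, at -0.39 and -0.34. The call for ILMN_15149 was lost without KD replicate 3 as well, at -0.44, and in another alternative.

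Of the members, 8 were called in both OE comparisons, which share no arrays, 5 with the same sign and 3 with opposite signs. That is 10.8% of the members, against 6.61% of all tested probes, with 6.14% of the same sign and 0.477% of opposite signs. At least 1 of the comparisons called 40 members, or 54.1%, against 53.7% of all tested probes, and 34 were called in neither, or 45.9%, against 46.3%. The 10 members that passed the filter only through groups with RA are included in these counts. The difference between the OE effect on day 4 and the OE effect on the knockdown was itself called for 25 of 74 members, or 33.8%, of which 14 were higher on day 4 and 11 lower, where 26.6% of all tested probes were called, 13.4% higher and 13.2% lower. With median scaling, which moved the median of all probes to 0.17, the calls split into 19 and 7, and with the authors' values into 11 and 14. Day, RA and knockdown all differ between these OE effects and cannot be told apart. ILMN_22865 had the largest positive difference, of 0.73 (SE 0.145, limma adjusted p = 0.000546). It read 8.09, 8.11 and 8.24 in OE against 7.50, 7.35 and 7.56 in SCR on day 4, and 9.94, 9.80 and 10.05 in OE+KD against 9.86, 10.08 and 10.03 in KD. The groups were apart on day 4 and overlapped with RA. ILMN_15989 had the largest negative difference, of -0.85 (SE 0.176, limma adjusted p = 0.00081). It read 10.15, 9.80 and 10.01 in OE against 10.49, 10.34 and 10.48 in SCR on day 4, and 11.56, 11.49 and 11.39 in OE+KD against 10.87, 11.36 and 11.01 in KD. OE was lower in the first setting and higher in the second, with no overlap in either.

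KD and SCR with RA are compared as a description, since the SCR arrays with RA entered 2 of the 4 differences that chose the members, and nothing is read from the calls. KD and SCR differed for 17 of 74 members, or 23.0%, of which 12 were higher and 5 lower in KD, where 16.3% of all tested probes were called, 8.61% higher and 7.70% lower. The median difference was 0.06, with a range of -0.46 to 1.19, against -0.01 over all, and 6 members, or 8.11%, differed by at least 0.5, against 5.02% of all tested probes. The count was 11 without SCR replicate 3 (14.9%, against 12.3% of all tested probes), 11 without KD replicate 2 (14.9%, against 12%) and 26 when arrays were weighted by their fit (35.1%, against 27.7%). With median scaling the calls split into 7 higher and 5 lower.

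ILMN_1289 had the largest positive difference, of 1.19. With RA it read 12.14, 12.27 and 11.93 in KD, 10.91, 10.97 and 10.87 in SCR, and 11.19, 11.23 and 11.20 in OE. Without RA its 12 arrays lay between 8.89 and 9.42, so all arrays with RA lay above these, with KD the highest. ILMN_15149 followed, with KD above SCR by 0.92. ILMN_7980 had the largest negative difference, of -0.46, with its KD arrays below all SCR and all OE+KD arrays. It was higher in OE+KD than in KD by 0.36 (limma adjusted p = 0.0215). ILMN_25297 read 9.86, 9.55 and 9.79 in SCR with RA, and its difference of KD from SCR was -0.41, again with all KD arrays below.

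The spread between the highest and the lowest mean of the 4 groups with RA was 0.12 to 1.19 over the members, with a median of 0.36, against 0.32 over all tested probes. It was under 0.5 for 57 members, or 77.0%, against 77.5% of all tested probes, and at least 1 for 3, or 4.05%, against 2.68%. The rule bounded OE against SCR with RA from below, so these values are a description. The highest mean was in OE for 28 members, in KD for 18, in OE+KD for 15 and in SCR for 13. The lowest mean was in SCR for 30, in KD for 20, in OE for 15 and in OE+KD for 9. The OE group holds the array that stood apart, and its part in this order was not tested. The order was not counted over all tested probes, and the rule left out probes with OE well below SCR. Nothing is read from it.

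The rule set no upper limit on a rise with OE under RA. On the authors' scale that difference ran from -0.46 to 1.38 with a median of 0.12, and was above 0 in 48 members. It was under 0.4 in size in 56, at least 0.5 in 11 and at least 1 in 5. Of the 11, 9 started below 6.5 without RA. In the arrays outside the 4 differences, OE was called higher for 4 of these 11 and lower for 1 on day 4. Over all tested probes 26.2% were called higher there and 25.3% lower. On the knockdown OE was called higher for 5 and lower for 0, where the shares were 3.59% and 5.24%. The differences of the 11 ran from -0.29 to 0.85 with a median of 0.16 on day 4. On the knockdown they ran from -0.06 to 0.55 with a median of 0.33. These 11 were set apart after their values were seen, and no test was made of them as a group.

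Day 4 and day 2 without RA are set side by side as a description, since both day 2 groups chose the members. In SCR the difference of day 4 from day 2 ran from -0.54 to 0.48 with a median of 0.03, and 1 member differed by at least 0.5. In OE it ran from -0.60 to 0.96 with a median of 0.06, and 5 members differed by at least 0.5. Over all tested probes 2.54% differed by at least 0.5 in SCR and 7.29% in OE.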

How the data were processed

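The scanner table holds linear intensity values for 20589 probes on each of 24 arrays, as deposited. Negative values made up 14.3% to 17.6% of each array, which shows that background was subtracted upstream of the deposit, and mean intensity was 617.8 to 1134.2. The number of arrays limits the precision. The deposited series values are intensities normalized by the authors, by a method that no label or header states, with a floor of 20, and they served the rule and 1 alternative. The deposited fold changes are on a log2 scale per the file headers.

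In limma 3.58.1 under R 4.3.3, normexp (offset 50) and quantile normalization were applied to the scanner intensities, followed by log2. Probes above the array median on all 3 arrays of at least 1 group were tested, 10691 in all or 51.9%. A model of 8 group means with 16 residual degrees of freedom was fitted (lmFit, eBayes), with p-values adjusted by Benjamini-Hochberg over all tested probes, and was tested on simulated data. Python 3.11.15, pandas 2.3.3 and NumPy 2.4.6 were used for summaries.

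The members, comparisons and lists were chosen with earlier results of these data known. The named probes are the called members with the largest rise and the largest fall in each comparison, at most 2 each way, for the RA pairs also among members that passed the filter through a group without RA, a choice made after seeing the data, besides those named as exceptions. Gene lists and cell type markers were not used here, since no table used here pairs the probes with genes. Alternatives were another background correction, scaling, filter, the authors' values, a replicate block, array weights, a fit of only the groups compared and leaving out each array. Array replicate numbers come from the titles. Same-numbered arrays deviated together, with every correlation over 0.1, for OE against SCR on day 4 (0.133 to 0.264), KD with RA against SCR on day 4 (0.200 to 0.292) and KD against SCR (0.115 to 0.255). The criterion was not met for OE+KD against KD (0.079 to 0.218) or OE+KD with RA against OE on day 4 (-0.038 to 0.242).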

Additional observations from a re-analysis of the deposited data

Results flagged for a closer look

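For 25 of the 74 RA-raised probes the OE effect on day 4 without RA differed from the OE effect on the knockdown with RA, by a test of the difference itself in the limma model (adjusted p under 0.05). The effects had opposite signs for 16 of the 25 and the same sign for 9. Of the 25, 18 were called on day 4 and 7 on the knockdown, where 51.5% and 8.83% of all tested probes were called. These splits were not counted over all probes whose difference was called, so nothing is read from them. Choosing probes by the difference of their effects itself favours opposite signs, and the signs include effects that were not called. Of all 74 members, 3 were called in both OE comparisons with opposite signs. The difference was called for 26.6% of all tested probes. Its median over the members was 0.03, with a range of -0.85 to 0.73. ILMN_137335 rose by 0.87 with OE on day 4 and differed by 0.20 on the knockdown (limma adjusted p = 0.3), a difference of 0.67 (SE 0.158, limma adjusted p = 0.00283). ILMN_8409 differed by -0.79 on day 4 and by -0.06 on the knockdown (limma adjusted p = 0.841), a difference of -0.74 (SE 0.170, limma adjusted p = 0.00221).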

How the results depend on the processing

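The count of members called between OE+KD and KD was 14 (18.9%, against 8.83% of all tested probes). It was 9 without background correction (12.2%, against 8.45%) and 9 with the authors' values (12.2%, against 8.27%). It was 8 with median scaling (10.8%, against 5.02%). Leaving out 1 array gave 6 (8.11%, against 6.06%) to 18 (24.3%, against 12.3%). With array weights 27.0% of the members were called, 12 higher and 8 lower, against 12.5%. The count between KD and SCR with RA, 17, was 26 with array weights and 11 to 22 when 1 array was left out. Between KD with RA and SCR on day 4, 73 became 48 with a stricter filter that left 48 members. For OE on day 4, leaving out 1 array gave 28 (37.8%, against 45.4%) to 39 (52.7%, against 55.8%). For OE+KD with RA against OE on day 4 it gave 71 (95.9%, against 44.0% or 42.8%) to 73 (98.6%, against 52.4%). For the difference of the OE effects it gave 18 (24.3%, against 22.4%) to 29 (39.2%, against 32.6%). Median scaling moved the median of all probes to 0.13 for OE on day 4, to -0.26 for OE+KD with RA against OE on day 4 and to 0.17 for the difference of the OE effects. The calls then split into 30 higher and 10 lower in place of 20 and 14 for OE on day 4, 4 and 4 in place of 10 and 4 for OE+KD against KD, 7 and 5 in place of 12 and 5 for KD against SCR, and 19 and 7 in place of 14 and 11 for the difference of the OE effects, which was 11 and 14 with the authors' values. With the replicate number as a block, the pairing gave 38 calls for OE on day 4 (51.4%, against 56.5% of all tested probes). It gave 16 for OE+KD against KD (21.6%, against 13.1%) and 24 for KD against SCR (32.4%, against 21.9%). Over all 74 it gave 73 for each RA comparison (98.6%, against 47.6% in the first pair and 53.5% in the second). For the difference of the OE effects it gave 31 (41.9%, against 33.5%). None was over 1.5 times from the value without the block. The rule gave 70 probes with a floor of 20 (68 of them members), 50 with RA thresholds of 1, 69 on the recomputed values (55 of them members), and 72 to 81 when 1 array of its 4 groups was left out. Leaving out the array that stood apart and the 4 groups' arrays in the rule were alternatives chosen after seeing the data. For single probes, 354 of 367 values kept direction and call, 13 kept the direction but lost the call and 0 reversed. Of the 13, 12 were ILMN_15149 and ILMN_1289 between OE+KD and KD, and 1 was ILMN_8409 for the difference of the OE effects, at -0.56 with median scaling. The cause of these changes was not tested.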

Other observations

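The authors' deposited table of log2 fold changes matched differences of the authors' normalized values with a largest gap of 0.0000 on the log2 scale over the 10547 probes above 20 on every array, but not by the controls its headers name. Both columns without RA were differences from the mean of all 6 SCR arrays without RA, days 2 and 4 together. The 3 columns with RA used replicates 1 and 2 of the treated group against the 3 SCR arrays with RA, whereas the headers of the KD and the OE and KD columns name SCR without RA. For the RA-raised probes the reading matters: the median in the authors' deposited table was 0.08 for KD and 0.11 for OE and KD, and the same medians taken against SCR without RA on day 2, as the headers read, are 1.36 and 1.39.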
